A study of Saccharomyces cerevisiae with 5 samples.

Results

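The large subunit of the cytosolic ribosome of the yeast Saccharomyces cerevisiae is built from proteins named RPL with a number, plus the stalk proteins named RPP. Their genes were chosen by name from the gene column of the deposited table: every RPL gene with a number, with or without the letter A or B, and RPP0, RPP1A, RPP1B, RPP2A and RPP2B. This gave 81 genes of the 5009 named in the table, on 600 of its 29960 rows. They comprise 33 pairs of A and B copies, 10 genes with a single copy and 5 stalk genes. All 81 genes reached 10 CPM (tag counts scaled to the size of the library) in every library, so the filter of 10 CPM in at least 1 library removed no gene of the set.

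The measurements come from cap analysis of gene expression (CAGE), which reads the capped 5′ ends of RNAs. By design it gives 1 tag per RNA whatever its length. Whether levels of genes of different length can be set side by side in these libraries was not tested. The sources used here give the strains by name (BY_DEH+, titled MK5622, and BY_DEH++, titled MK5719) without a genotype, and all 5 cultures shared 10 mL of a medium based on HC-LN, 1% (w/v) of the carbon source and 30 °C. DEH is an unsaturated uronic acid monomer derived from alginate, and mannitol is a sugar alcohol. There was 1 library for each of 5 groups, so no difference below has a replicate check and no p-value is given.

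BY_DEH+ grew in DEH for 3 days, with an OD600 of 0.2 at the start and 0.63 at the end, and in glucose overnight, with 0.05 at the start and 0.91 at the end. BY_DEH++ grew in DEH for 2 days (0.05 at the start, 0.55 at the end), in mannitol for 1 day (0.02 and 0.79) and in glucose overnight (0.05 and 0.95). Medium, culture time and density therefore cannot be told apart. The title of the mannitol library names neither a medium nor a barcode, unlike the other 4, and whether it was prepared with them is not given in the sources used here. The libraries held 9.43 to 19.9 M reads, and 10 CPM was 94 to 199 reads. Ratios are given with exact 95% intervals from these reads (Clopper-Pearson), which cover counting error only.

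Ribosomal protein genes are among the most strongly transcribed genes of a growing yeast cell, and their transcription is known to follow nutrient supply through the TOR and protein kinase A pathways. Most of them carry binding sites for Rap1, which brings the activators Fhl1 and Ifh1, and a smaller group carries sites for Abf1. The whole genome duplication left most of these proteins with a pair of gene copies, and most of the few introns of yeast that lie in highly expressed genes are in ribosomal protein genes.

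The large subunit genes were higher in DEH and in mannitol than in glucose, and highest in mannitol. Their clusters held 5.62% of all CPM in BY_DEH+ in DEH and 2.77% in BY_DEH+ in glucose. In BY_DEH++ they held 9.12% in DEH, 15.4% in mannitol and 2.28% in glucose. The share was thus lowest in both glucose libraries, whose counting intervals were 2.27 to 2.29% in BY_DEH++ and 2.76 to 2.78% in BY_DEH+. CPM are shares of a library, so more RNA of these genes and less of others cannot be told apart. The median large subunit gene stood at 569 CPM in DEH against 216 CPM in glucose in BY_DEH+, and at 897 CPM in DEH, 1608 CPM in mannitol and 187 CPM in glucose in BY_DEH++.

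**Figure D1:**
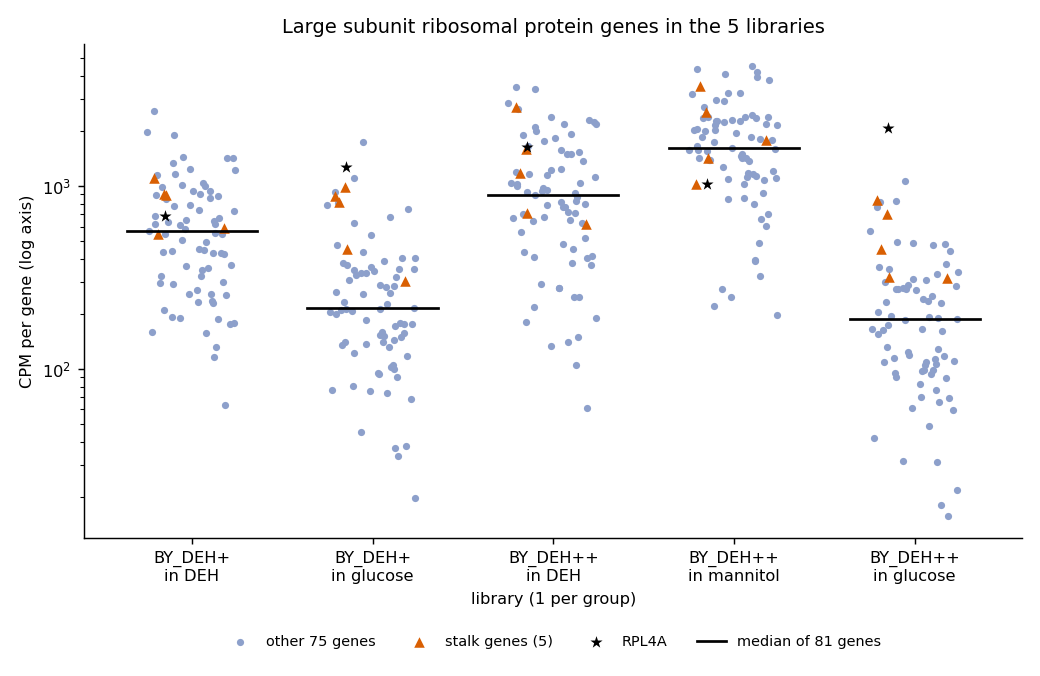
CPM of each of the 81 large subunit genes (log axis) in the 5 libraries, with 1 point per gene, triangles for the 5 stalk genes, a star for RPL4A and a line at the median. The medians lie at 569, 897 and 1608 CPM in the libraries without glucose, above 216 and 187 CPM in those with it, while RPL4A has its highest value, 2086 CPM, in BY_DEH++ in glucose.

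Folds are differences of log2(CPM + 1), which understate the change of low genes, and a gene was counted as higher or lower at 2-fold. In DEH against glucose, 58 of the 81 genes were 2-fold or more higher in BY_DEH+ and none was lower, where 10.5% of the 4904 genes of the table were higher and 9.97% lower. In BY_DEH++ the same comparison gave 76 higher and none lower, beside 8.69% and 10.8% of all genes. The median log2 difference of the 81 genes was 1.25 in BY_DEH+ and 2.29 in BY_DEH++, and that of all genes was 0.12 and -0.11. The 58 genes counted in BY_DEH+ were also counted in BY_DEH++. For 77 of the 81 genes both DEH libraries lay above both glucose libraries, which held for 28.8% of all genes.

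In mannitol against glucose in BY_DEH++, 77 genes were higher and 1, RPL4A, was lower, beside 9.89% and 27.0% of all genes. The log2 difference of RPL4A was -1.02, and -0.59 with median-of-ratios scaling and -0.68 with CPM rescaled over genes other than ribosomal protein genes, both short of 2-fold. The median log2 difference was 3.06 for the 81 genes and -0.46 for all genes. In DEH against mannitol in BY_DEH++, 2 genes (RPP0 and RPL10) were higher and 35 lower, beside 20.7% and 9.07% of all genes, with medians of -0.82 and 0.32. The mannitol library was the highest of the 5 for 61 genes, BY_DEH++ in DEH for 18, BY_DEH+ in DEH for 1 and a glucose library for 1. The same counts over all genes are not given here, so these describe the 81 genes only. Median-of-ratios scaling moves the median of all genes by 0.42 in mannitol against glucose, by -0.32 in DEH against mannitol and by 0.22 between the strains in DEH, and the members' medians move with it to 3.49, -1.15 and 0.90.

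**Figure D2:**
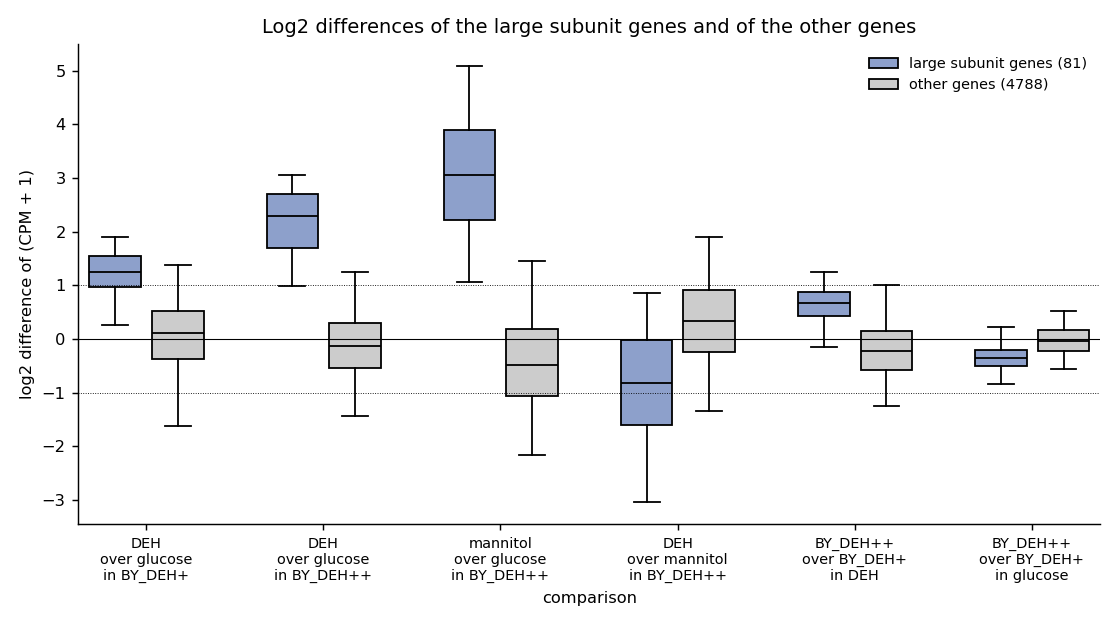
Log2 differences of CPM + 1 for the 81 large subunit genes and for the other genes with an annotated coding length in each of 6 comparisons, as boxes from the lower to the upper quartile with the median and whiskers to the 5th and 95th percentiles; dotted lines mark 2-fold. The medians of the large subunit genes are 1.25, 2.29 and 3.06 in the comparisons with glucose, -0.82 for DEH over mannitol, and 0.67 in DEH and -0.35 in glucose for BY_DEH++ over BY_DEH+.

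Between the strains, 12 genes were 2-fold or more higher in BY_DEH++ than in BY_DEH+ in DEH and none lower, beside 5.22% and 8.52% of all genes; 33 were higher with median-of-ratios scaling. In glucose 1 gene was higher and 1 lower, beside 0.673% and 1.12% of all genes. The medians of the 81 genes were 0.67 in DEH and -0.35 in glucose. The fold of DEH over glucose was the larger in BY_DEH++ for 76 of the 81 genes, with a median difference of the log2 folds of 1.04 against -0.19 over all genes. No replicate library exists to give the spread of this difference.

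In DEH the 12 genes higher in BY_DEH++ were RPL3, RPL4A, RPL6B, RPL7A, RPL9A, RPL13A, RPL14A, RPL15A, RPL19B, RPL43B, RPP0 and RPP2B. RPL3 stood at 2.50 times its BY_DEH+ level (2.43 to 2.57), RPP0 at 2.44 times (2.396 to 2.49) and RPL4A at 2.403 times (2.34 to 2.46). At the low end RPL22B had 133 CPM in BY_DEH++ and 258 CPM in BY_DEH+, a ratio of 0.516 (0.489 to 0.544), followed by RPP1B, RPL41A and RPL30 with log2 differences of -0.31, -0.23 and -0.16. The RPP1B difference was 0.62 when only clusters within the gene were counted. In glucose the gene that passed upwards was RPL4B, with 374 CPM in BY_DEH++ and 177 CPM in BY_DEH+, and the gene that passed downwards was RPL37B, with 15.7 CPM and 38.1 CPM. RPL4A, RPL3 and RPL18B came next at the high end in glucose (log2 differences of 0.72, 0.25 and 0.23), and RPP2B, RPL38 and RPL9A at the low end (-0.86, -0.85 and -0.85).

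The small subunit gave similar counts. Of its 57 genes, 40 were 2-fold or more higher in DEH in BY_DEH+, 56 in DEH in BY_DEH++ and 57 in mannitol, and none was lower in these comparisons. The summed CPM of the large subunit over that of the small subunit was 1.46 in DEH and 1.68 in glucose in BY_DEH+, and 1.38 in DEH, 1.35 in mannitol and 1.81 in glucose in BY_DEH++.

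Where the deposited table places a gene's clusters bears on single genes. Between 77.4% and 86.8% of the members' CPM lay in clusters around the coding start, 7.05% to 10.5% later in the coding region, and the rest upstream, downstream or on the other strand. A cluster was counted whole as around the coding start if any part of it lay there. This includes the main start clusters of 24 intron genes that ran on to exon 2. For 16 genes, clusters outside the gene's own region (its strand, from 500 bases before the coding start to the coding end) left that region with under 2 of every 3 CPM in some library. These are RPL15B, RPL22B, RPL23A, RPL24A, RPL24B, RPL26B, RPL28, RPL29, RPL30, RPL31B, RPL34A, RPL37A, RPL39, RPL41B, RPP1B and RPP2A. Counted over the gene's own region alone, 62 genes were higher in DEH in BY_DEH+, 78 in DEH in BY_DEH++ and 76 in mannitol, with 2 lower in mannitol.

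The core of the subunit is formed by single-copy proteins among others. RPL3, which reaches the peptidyl transferase centre, had 550 CPM in DEH against 405 CPM in glucose in BY_DEH+. In BY_DEH++ it had 1376 CPM in DEH, 1078 CPM in mannitol and 482 CPM in glucose. DEH was the highest medium for RPL3 in BY_DEH++, at 2.85 times glucose (2.78 to 2.93), while in BY_DEH+ the ratio was 1.36 (1.30 to 1.42). RPL10, which joins the subunit late in the cytoplasm and helps to form the tRNA sites, had 2568 CPM in DEH against 924 CPM in glucose in BY_DEH+, and 3474 CPM in DEH, 1659 CPM in mannitol and 768 CPM in glucose in BY_DEH++. RPL10 was the highest gene of the set in both DEH libraries, and DEH exceeded mannitol by 2.09 times (2.06 to 2.13).

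RPL32 and RPL25 showed the other order. RPL32 had 580 CPM in DEH against 185 CPM in glucose in BY_DEH+, and 950 CPM in DEH, 3219 CPM in mannitol and 123 CPM in glucose in BY_DEH++. RPL25, which lies at the tunnel exit where signal recognition particle binds, had 689 CPM in DEH against 262 CPM in glucose in BY_DEH+, and 1198 CPM in DEH, 4391 CPM in mannitol and 204 CPM in glucose in BY_DEH++. Both were more than 3 times as high in mannitol as in DEH, with DEH over mannitol ratios of 0.295 (0.290 to 0.300) and 0.273 (0.269 to 0.277). RPL38, a small protein of the subunit surface, followed the same order with 439 CPM in DEH against 208 CPM in glucose in BY_DEH+, and 648 CPM in DEH, 1737 CPM in mannitol and 115 CPM in glucose in BY_DEH++.

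RPL28, RPL29, RPL30 and RPL39 are single-copy genes with clusters outside their own region. RPL39, whose short protein lines the exit tunnel, had 271 CPM in DEH against 95.4 CPM in glucose in BY_DEH+, and 275 CPM in DEH, 2271 CPM in mannitol and 83.1 CPM in glucose in BY_DEH++. Over its own region the log2 differences from glucose were 2.20 for DEH in BY_DEH+, 2.71 for DEH in BY_DEH++ and 5.78 for mannitol, against 1.497, 1.72 and 4.76 over all assigned clusters. RPL30, known for binding the transcript of its own gene and blocking its splicing, had 158 CPM in DEH against 73.7 CPM in glucose in BY_DEH+, and 141 CPM in DEH, 1175 CPM in mannitol and 48.6 CPM in glucose in BY_DEH++. Its log2 difference for DEH in BY_DEH+ was 1.09, and 0.84 over its own region, which is below 2-fold.

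RPL29 shows how far the assignment reaches. A cluster 1365 bases upstream of its coding start held 522 CPM in DEH against 239 CPM in glucose in BY_DEH+, and 799 CPM in DEH, 362 CPM in mannitol and 307 CPM in glucose in BY_DEH++. Within its own region RPL29 had 121 CPM in DEH against 35.5 CPM in glucose in BY_DEH+, and 123 CPM in DEH, 1969 CPM in mannitol and 23.1 CPM in glucose in BY_DEH++. Its log2 difference in mannitol against glucose was 6.35 in that region and 2.83 over all assigned clusters. RPL28, a protein known for the cycloheximide resistance its mutants give, had 776 CPM in DEH against 348 CPM in glucose in BY_DEH+, and 897 CPM in DEH, 2947 CPM in mannitol and 274 CPM in glucose in BY_DEH++. Of the 10 single-copy genes, 9 were 2-fold higher in DEH in BY_DEH+ (8 over their own regions), and all 10 were higher in DEH and in mannitol in BY_DEH++ by both ways of counting.

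RPL5 and RPL11 bind the small ribosomal RNA that enters the large subunit as a ready-made particle. RPL5 had 983 CPM in DEH against 378 CPM in glucose in BY_DEH+, and 1895 CPM in DEH, 2706 CPM in mannitol and 300 CPM in glucose in BY_DEH++. Its ratio of DEH over glucose was 2.60 (2.50 to 2.70) in BY_DEH+ and 6.32 (6.12 to 6.53) in BY_DEH++. RPL11A and RPL11B were also 2-fold or more higher in both DEH libraries and in mannitol. RPL11B, with log2 differences of 1.91 and 2.67 in DEH, was among the 6 genes with the largest DEH folds shared by both strains over all assigned clusters.

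The stalk, made of RPP0 and the acidic proteins RPP1 and RPP2, recruits the translation factors that hydrolyse GTP. Its 5 genes had log2 differences for DEH in BY_DEH+ from -0.58 to 0.98, those of RPP1B and RPP2A by clusters outside the gene. RPP0 had 1114 CPM in DEH against 884 CPM in glucose in BY_DEH+, and 2721 CPM in DEH, 1030 CPM in mannitol and 839 CPM in glucose in BY_DEH++. It was the gene with the largest excess of DEH over mannitol, 2.64 times (2.59 to 2.70), and its mannitol value was 1.23 times (1.20 to 1.26) its value in glucose.

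RPP1A had 910 CPM in DEH against 987 CPM in glucose in BY_DEH+, and 1601 CPM in DEH, 2545 CPM in mannitol and 705 CPM in glucose in BY_DEH++. RPP2B had 550 CPM in DEH against 820 CPM in glucose in BY_DEH+, and 1178 CPM in DEH, 3527 CPM in mannitol and 453 CPM in glucose in BY_DEH++. Both lay below glucose in DEH in BY_DEH+, with log2 differences of -0.12 and -0.58, and above it in BY_DEH++, with 1.18 and 1.38. They were the 2 genes of the set whose DEH difference had opposite signs in the strains.

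RPP1B and RPP2A each have a strong cluster far from the gene. RPP1B had 892 CPM in DEH against 453 CPM in glucose in BY_DEH+, and 717 CPM in DEH, 1433 CPM in mannitol and 317 CPM in glucose in BY_DEH++. RPP2A had 591 CPM in DEH against 302 CPM in glucose in BY_DEH+, and 623 CPM in DEH, 1786 CPM in mannitol and 313 CPM in glucose in BY_DEH++. Over their own regions the log2 differences for DEH in BY_DEH+ were 1.41 and 1.72, against 0.98 and 0.97 over all assigned clusters. None of the 5 stalk genes was thus 2-fold higher in DEH in BY_DEH+ by the assigned clusters, and 2 were by their own regions. In BY_DEH++ the counts were 4 and 5 in DEH, and 4 by both ways in mannitol. RPL12A and RPL12B, whose protein sits at the base of the stalk, were 2-fold or more higher in both DEH libraries and in mannitol, with log2 differences from 1.63 to 3.72.

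The proteins around the exit tunnel (RPL4, RPL17, RPL19, RPL25, RPL26, RPL31, RPL35 and RPL39) are encoded by 14 genes. In DEH 12 of them were 2-fold or more higher in BY_DEH+ and 13 in BY_DEH++, and 12 were higher in mannitol, with RPL4A lower, short of 2-fold after either rescaling. RPL40A and RPL40B, which encode ubiquitin joined to a ribosomal protein, were 2-fold or more higher in the same 3 comparisons. RPL40A had 1445 CPM in DEH against 438 CPM in glucose in BY_DEH+, and 1761 CPM in DEH, 4086 CPM in mannitol and 272 CPM in glucose in BY_DEH++.

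RPL4A (chrII:300166-301254, + strand) stood apart from the set. It encodes RPL4, whose long loop reaches into the exit tunnel, and had 685 CPM in DEH against 1268 CPM in glucose in BY_DEH+, and 1646 CPM in DEH, 1026 CPM in mannitol and 2086 CPM in glucose in BY_DEH++. Both glucose libraries were above the DEH library of the same strain, with ratios of DEH over glucose of 0.540 (0.525 to 0.556) in BY_DEH+ and 0.789 (0.776 to 0.802) in BY_DEH++. RPL4B (chrIV:471853-472941, + strand), the other copy, had 425 CPM in DEH against 177 CPM in glucose in BY_DEH+, and 799 CPM in DEH, 603 CPM in mannitol and 374 CPM in glucose in BY_DEH++. It was higher in DEH than in glucose by 2.41 times (2.27 to 2.55) and 2.14 times (2.07 to 2.21).

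The upstream sequences of the RPL4 copies are shown because the copies differed from glucose in opposite directions while their coding sequences differ at 12 of 1089 positions. Each run is read from the R64 genome and ends at the base before the gene's main start cluster, chrII:299916-300097 on the + strand for RPL4A and chrIV:471603-471743 on the + strand for RPL4B. Capitals mark a match to the Abf1 pattern, TC and ACG with 7 bases between them, which the RPL4B run does not hold. The letters TATAAA, left in lower case, also lie in the RPL4A run alone. Across the set, 20 genes held the Abf1 pattern in the 250 bases before the coding start. Their median log2 differences from glucose were 1.34 for DEH in BY_DEH+ and, in BY_DEH++, 2.56 for DEH and 3.20 for mannitol. The 61 genes without it had 1.20, 2.18 and 2.96. Whether either pattern bears on the difference between the RPL4 copies was not tested.
RPL4A: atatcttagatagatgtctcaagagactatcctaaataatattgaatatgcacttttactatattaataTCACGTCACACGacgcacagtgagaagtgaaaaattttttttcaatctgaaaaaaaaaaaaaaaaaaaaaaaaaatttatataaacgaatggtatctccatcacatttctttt
RPL4B: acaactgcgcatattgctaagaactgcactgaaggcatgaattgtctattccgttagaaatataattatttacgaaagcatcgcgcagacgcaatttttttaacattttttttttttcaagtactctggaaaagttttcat

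RPL15B was the other gene below glucose in DEH in both strains. Most of its assigned CPM lay in a cluster on the other strand. Over all assigned clusters it had 1018 CPM in DEH against 1733 CPM in glucose in BY_DEH+, and 979 CPM in DEH, 2228 CPM in mannitol and 1072 CPM in glucose in BY_DEH++. The other-strand cluster lay outside the gene, 932 bases upstream of its coding start. It held 850 CPM in DEH against 1439 CPM in glucose in BY_DEH+, and 837 CPM in DEH, 2086 CPM in mannitol and 690 CPM in glucose in BY_DEH++. In BY_DEH++ the other-strand cluster was thus higher in DEH than in glucose. A downstream cluster, 1020 bases from the coding start, held 24.3 CPM in DEH against 121 CPM in glucose in BY_DEH+. In BY_DEH++ it held 18.1 CPM in DEH, 78.2 CPM in mannitol and 217 CPM in glucose. Within its own region RPL15B had 122 CPM in DEH against 125 CPM in glucose in BY_DEH+, and 99.5 CPM in DEH, 51.0 CPM in mannitol and 110 CPM in glucose in BY_DEH++. The log2 difference of mannitol against glucose was 1.05 over all assigned clusters and -1.10 in the own region.

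Among the largest DEH folds shared by both strains over all assigned clusters were those of RPL7B, RPL8A, RPL9B, RPL11B and RPL19B. Over the own regions RPL22B, RPL39 and RPL24A were among the 6 largest, with smaller log2 differences of the strains of 2.43, 2.20 and 2.17. RPL11B and RPL19B were then not among the 6. RPL7B had 178 CPM in DEH against 19.7 CPM in glucose in BY_DEH+, and 189 CPM in DEH, 196 CPM in mannitol and 21.7 CPM in glucose in BY_DEH++. Its level was 178 to 196 CPM in the 3 libraries without glucose, and its DEH over glucose ratios of 9.01 (7.74 to 10.5) and 8.71 (7.72 to 9.85) have overlapping intervals. RPL8A, whose protein takes part in early assembly, had 188 CPM in DEH against 33.2 CPM in glucose in BY_DEH+, and 248 CPM in DEH, 321 CPM in mannitol and 18.0 CPM in glucose in BY_DEH++. The ratio for RPL8A was 5.66 (5.02 to 6.40) in BY_DEH+ and 13.8 (12.1 to 15.7) in BY_DEH++. Both are the minor copy of their pair: RPL7A held 64.5 to 88.9% of the RPL7 CPM, and RPL8A 7.28 to 17.6% of the RPL8 CPM.

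RPL9B had 190 CPM in DEH against 45.0 CPM in glucose in BY_DEH+, and 292 CPM in DEH, 272 CPM in mannitol and 31.3 CPM in glucose in BY_DEH++. RPL19B had 946 CPM in DEH against 260 CPM in glucose in BY_DEH+, and 1925 CPM in DEH, 2441 CPM in mannitol and 249 CPM in glucose in BY_DEH++. At the other end of the ranking, RPL1A had 1334 CPM in DEH against 1113 CPM in glucose in BY_DEH+, and 2115 CPM in DEH, 2149 CPM in mannitol and 824 CPM in glucose in BY_DEH++. RPL1 forms the mobile stalk beside the tRNA exit site.

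In mannitol the largest folds over glucose belonged to RPL9A, RPL43A, RPL37B, RPL42A, RPL33B and RPL42B, with log2 differences from 5.02 to 5.56. RPL9A had 160 CPM in DEH against 76.4 CPM in glucose in BY_DEH+, and 673 CPM in DEH, 2022 CPM in mannitol and 41.96 CPM in glucose in BY_DEH++. Its mannitol value was 48.2 times (44.3 to 52.5) its glucose value, and RPL9A also had the largest strain ratio in DEH, 4.202 (4.00 to 4.42). RPL43A had 233 CPM in DEH against 93.2 CPM in glucose in BY_DEH+, and 279 CPM in DEH, 3237 CPM in mannitol and 69.8 CPM in glucose in BY_DEH++. RPL37B had 63.5 CPM in DEH against 38.1 CPM in glucose in BY_DEH+, and 61.3 CPM in DEH, 701 CPM in mannitol and 15.7 CPM in glucose in BY_DEH++. RPL37 and RPL43 are small zinc-binding proteins. For RPL43A and RPL37B the DEH value was 0.0862 (0.0837 to 0.0886) and 0.0874 (0.0822 to 0.0929) of the mannitol value, the lowest ratios of the set.

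RPL41A, whose product is among the shortest yeast proteins, had 210 CPM in DEH against 140 CPM in glucose in BY_DEH+, and 180 CPM in DEH, 1564 CPM in mannitol and 132 CPM in glucose in BY_DEH++. RPL17B was at the opposite end, with 429 CPM in DEH against 144 CPM in glucose in BY_DEH+, and 709 CPM in DEH, 392 CPM in mannitol and 107 CPM in glucose in BY_DEH++. Mannitol was thus far above DEH for RPL41A, and below it for RPL17B.

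RPL42A, RPL42B and RPL33B gave the same picture. RPL42A had 116 CPM in DEH against 37.1 CPM in glucose in BY_DEH+, and 105 CPM in DEH, 1139 CPM in mannitol and 31.1 CPM in glucose in BY_DEH++. RPL42B had 552 CPM in DEH against 171 CPM in glucose in BY_DEH+, and 832 CPM in DEH, 4214 CPM in mannitol and 129 CPM in glucose in BY_DEH++. RPL33B had 253 CPM in DEH against 117 CPM in glucose in BY_DEH+, and 405 CPM in DEH, 2389 CPM in mannitol and 69.1 CPM in glucose in BY_DEH++. The DEH libraries of both strains lay between mannitol and glucose for all 3 genes. By the own region alone RPL29, RPL37A and RPL39 came first, with log2 differences of 6.35, 5.84 and 5.78. The smallest mannitol differences after RPL4A were those of RPP0 (0.30), RPL4B (0.69), RPL15A (0.81), RPL15B (1.05) and RPL10 (1.11).

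The genes with large mannitol folds tended to have short coding regions. RPL9A, with the largest fold over all assigned clusters, has 576 coding bases and is among the 27 longest. Across the 81 genes, Spearman's rho between coding length and the log2 difference was -0.57 for mannitol over glucose (-0.73 over the own regions) and 0.79 for DEH over mannitol, but 0.17 and 0.28 for DEH over glucose in BY_DEH+ and BY_DEH++ (-0.02 and 0.10 over the own regions). For BY_DEH++ over BY_DEH+ in DEH it was 0.47 (0.42 over the own regions). All these values come from the same 5 libraries, and genes are not independent replicates. The 27 genes with the shortest coding regions (78 to 366 bases) had a median log2 difference in mannitol against glucose of 3.91, the 27 in the middle 3.10 and the 27 longest (555 to 1164 bases) 1.98. In DEH against glucose in BY_DEH++ the medians were 1.87, 2.58 and 2.32.

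Short genes outside the ribosome showed a like order at a lower level. Among the genes that encode no cytosolic ribosomal protein, the 124 genes of up to 300 coding bases had a median log2 difference of 0.97 in mannitol against glucose, and the 1934 genes of 1001 to 2000 bases one of -0.58. In DEH against glucose in BY_DEH++ those medians were -0.14 and -0.16. Over all 4731 such genes rho was -0.08 for mannitol over glucose. The part of transcript length in library preparation was not tested.

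**Figure D3:**
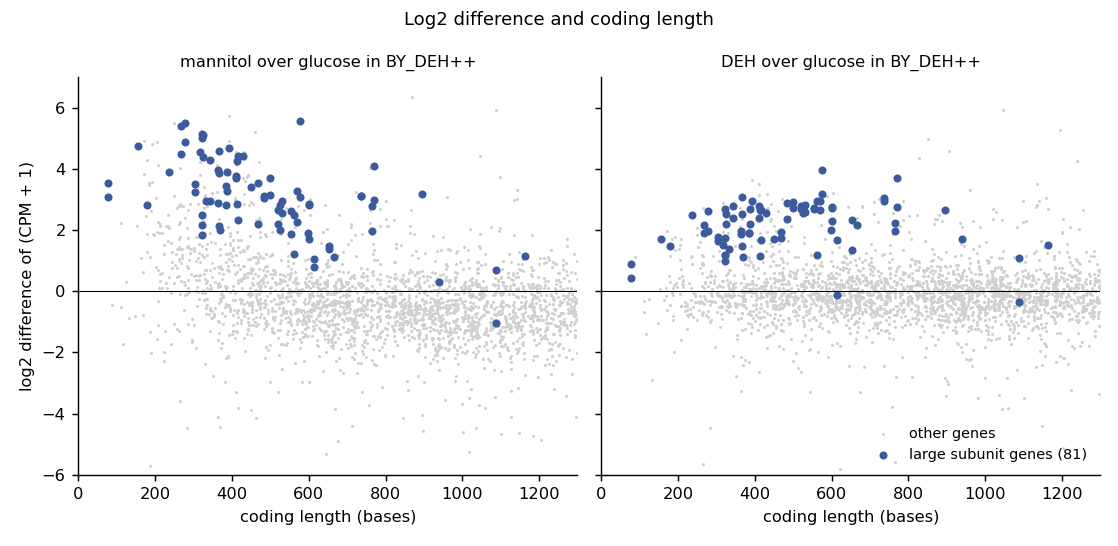
Log2 difference of CPM + 1 against coding length in bases, for mannitol over glucose (left) and DEH over glucose (right) in BY_DEH++, with the 81 large subunit genes in blue and the other genes of like length in grey. In mannitol the 27 shortest large subunit genes have a median of 3.91 and the 27 longest 1.98, and in DEH the medians are 1.87 and 2.32.

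The spread of levels between proteins was smallest in mannitol, and the part of coding length in it was not tested. Summing copies gives 46 proteins, which are needed in equal number in the ribosome except for the paired acidic stalk proteins. The highest protein stood 21.1 times above the lowest in DEH and 34.5 times in glucose in BY_DEH+, and 39.5 times in DEH, 6.19 times in mannitol and 50.6 times in glucose in BY_DEH++. The standard deviation of the log2 CPM over the 46 proteins was 0.94 in DEH and 1.11 in glucose in BY_DEH+, and 1.06 in DEH, 0.70 in mannitol and 1.21 in glucose in BY_DEH++. Over all assigned clusters RPL30 was the lowest protein in every library but mannitol, where RPP0 was, and the highest was RPL1, RPL15, RPL20, RPL36 and RPL4 in the order of the libraries just given. Over the own regions the ratios were 35.3, 52.2, 64.4, 6.19 and 105.8 and the standard deviations 1.10, 1.27, 1.26, 0.71 and 1.42 in that order. RPL29 was then the lowest protein in both glucose libraries, and RPL1 in place of RPL15 the highest in BY_DEH+ in glucose. The other-strand cluster upstream of RPL15B held 1439 CPM in that library.

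Copies of a pair encode the same or nearly the same protein, and the split between them was measured as the share of the A gene in the pair's CPM. The first 50 bases of the main start cluster occur once in the genome for all 81 genes. The lowest A share was 7.28% (RPL8 in BY_DEH++ in glucose). The share was above 50% in every library for 11 pairs, below 50% in every library for 11, and on both sides for 11. Differences of 10 percentage points or more were counted.

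In DEH against glucose 8 of the 33 pairs passed 10 points in BY_DEH+ and 11 in BY_DEH++, and 26 pairs had the same sign in both strains. Mannitol against glucose gave 19 pairs and DEH against mannitol 18, while the strains differed in 6 pairs in DEH and 1 in glucose. Over the own regions the counts in the same order were 11, 9, 17, 15, 5 and 0. Of the 24 small subunit pairs, 10 passed in DEH in each strain and 12 in mannitol.

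Over all assigned clusters the share passed 10 points in the same direction in both strains in RPL4, RPL1, RPL15 and RPL23. The RPL4A share was 61.7% in DEH beside 87.8% in glucose in BY_DEH+, and 67.3% in DEH, 63.0% in mannitol and 84.8% in glucose in BY_DEH++. Each glucose library was thus above all 3 others. The RPL1A share was 40.1% (39.6 to 40.7) in DEH beside 58.6% (57.9 to 59.4) in glucose in BY_DEH+, and 42.6% in DEH, 57.6% in mannitol and 59.1% in glucose in BY_DEH++. For RPL1 the mannitol library lay with glucose and both DEH libraries lay on the other side of 50%, though the coding sequences of the copies differ at only 4 of 654 positions.

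The RPL23A share was 18.7% in DEH beside 30.6% in glucose in BY_DEH+, and 12.5% in DEH, 13.3% in mannitol and 28.6% in glucose in BY_DEH++. Over the own regions the RPL23 differences in DEH were -9.41 and -8.01 points, below the limit. The RPL15A share was 53.1% in DEH beside 31.9% in glucose in BY_DEH+, and 73.0% in DEH, 39.1% in mannitol and 43.3% in glucose in BY_DEH++. Over the own regions, which leave out the other-strand cluster upstream of RPL15B, it was 86.6 to 96.5% in all 5 libraries. RPL37 and RPL41 passed the limit in DEH in both strains over the own regions only. Their own-region shifts in BY_DEH+ and BY_DEH++ were 15.45 and 15.21 points for RPL37 and -16.38 and -26.0 for RPL41. In mannitol the RPL41 shift was -16.94 points over the own regions, against 7.82 over all assigned clusters. Further pairs in the ranking over all assigned clusters, by the smaller strain difference, were RPL21 (14.7 and 8.32 points in BY_DEH+ and BY_DEH++), RPL16 (8.03 and 13.2) and RPL8 (8.98 and 6.56). All 3 had a higher A share in DEH.

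**Figure D4:**
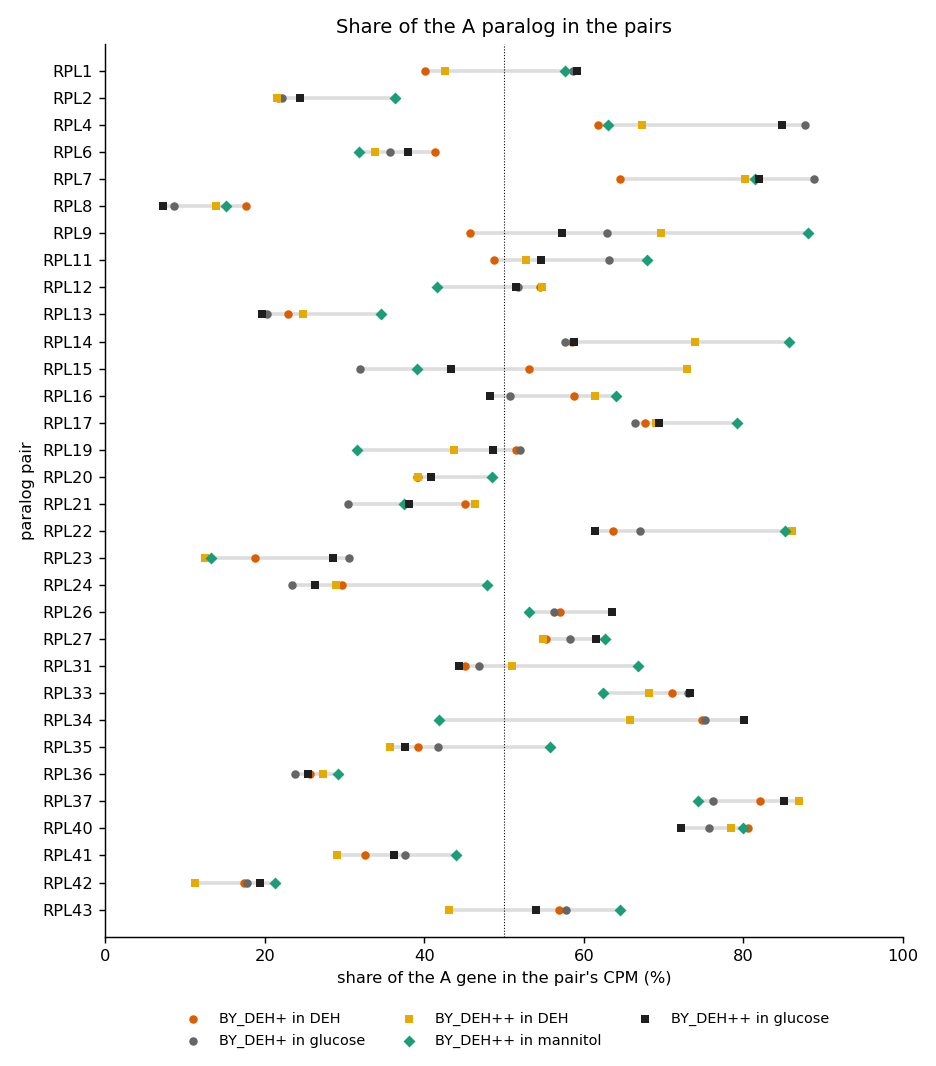
Share of the A gene in the CPM of the pairs, in percent, with 1 point per library, a grey bar over the range and a dotted line at 50%. RPL4 and RPL1 separate DEH from glucose in both strains (61.7 and 67.3% against 87.8 and 84.8% for RPL4A). In RPL9, RPL14 and RPL31, among other pairs, the mannitol point lies furthest towards the A gene.

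In mannitol the largest shifts over glucose were in RPL34, RPL9, RPL14, RPL22, RPL31 and RPL4, and over the own regions in RPL9, RPL14, RPL26 (-24.4 points), RPL24 (23.99 points) and RPL4. The RPL9A share was 45.7% in DEH beside 62.9% in glucose in BY_DEH+, and 69.7% in DEH, 88.1% in mannitol and 57.3% in glucose in BY_DEH++. In DEH it was thus lower than in glucose in BY_DEH+ and higher in BY_DEH++, a difference of 24.03 points between the strains. The RPL14A share was 58.5% in DEH beside 57.6% in glucose in BY_DEH+, and 73.9% in DEH, 85.7% in mannitol and 58.7% in glucose in BY_DEH++. For RPL34, RPL22 and RPL31, where a copy has clusters outside its own region, the shifts in mannitol of -38.3, 23.8 and 22.5 points became -10.3, 2.17 and 10.0 points over the own regions. Between the strains in DEH the other large shifts were RPL22 (22.5 points, 20.4 over the own regions), RPL15 (19.9, 6.14 over the own regions) and RPL7 (15.7 points).

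The RPL7A share was 64.5% in DEH beside 88.9% in glucose in BY_DEH+, and 80.3% in DEH, 81.4% in mannitol and 81.9% in glucose in BY_DEH++. RPL7A had 323 CPM in DEH against 158 CPM in glucose in BY_DEH+, and 768 CPM in DEH, 860 CPM in mannitol and 98.4 CPM in glucose in BY_DEH++. RPL7B had about the same level in both DEH libraries, while RPL7A, the major copy, was higher in BY_DEH++.

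Of the 81 genes 53 have an intron, and the copies and single genes with one were all at least 2-fold higher in DEH and in mannitol in BY_DEH++. In BY_DEH+ 42 of the 53 were higher in DEH, and 16 of the 28 without an intron. The main start cluster was 41 to 700 bases wide with a median of 165, and its 5′ edge lay 96 bases before the coding start in the median gene (quartiles 71 and 130). In 24 intron genes this cluster, then 381 to 518 bases wide, ran on to cover the first base of exon 2.

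In 15 intron genes a separate cluster covered the first base of exon 2. Such clusters are among the 17 clusters later in a coding region that reached 50 CPM in some library, all of them in intron genes and 16 of them within 2 bases of exon 2. In BY_DEH+ they held 40.1% of their genes' CPM in DEH and 50.2% in glucose, and in BY_DEH++ 46.9% in DEH, 45.4% in mannitol and 46.8% in glucose. In RPL35A the cluster had 329 CPM in DEH against 224 CPM in glucose in BY_DEH+, and 552 CPM in DEH, 2568 CPM in mannitol and 151 CPM in glucose in BY_DEH++. It made up 65.2 to 88.1% of the gene's CPM, and its counterpart in RPL20B 72.2 to 92.6%.

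The junction sequences of 4 of the 6 clusters of 8 bases or fewer that cover this base are shown because the signal starts where the intron ends. Lower case is the last 20 bases of the intron and capitals are the first 20 bases of exon 2, from the R64 genome on the + strand. The clusters' 5′ edges lay 0 bases (RPL33A) to 4 bases (RPL26A) before the first base of exon 2. The places are chrIV:118138-118177 for RPL35A, chrXIII:651604-651643 for RPL36A, chrXVI:282646-282685 for RPL33A and chrXII:819758-819797 for RPL26A.
RPL35A: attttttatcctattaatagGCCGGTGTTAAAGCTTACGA
RPL36A: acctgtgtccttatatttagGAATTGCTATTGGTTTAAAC
RPL33A: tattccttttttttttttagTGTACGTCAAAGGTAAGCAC
RPL26A: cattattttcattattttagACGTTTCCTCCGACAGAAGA

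Gene by gene, the share in these clusters did not follow the pooled values, in which DEH stood above mannitol. It was lower in DEH than in mannitol in 17 of these 17 genes, lower in DEH than in glucose in 16 of 17 in BY_DEH+ and in 12 of 17 in BY_DEH++, higher in mannitol than in glucose in 11 of 17, and in BY_DEH++ against BY_DEH+ higher in 16 of 17 in DEH and lower in 16 of 17 in glucose. In RPL33A it was 10.9% in DEH beside 21.9% in glucose in BY_DEH+, and 14.5% in DEH, 21.7% in mannitol and 17.7% in glucose in BY_DEH++. Whether these tags are the 5′ ends of RNAs or of reads aligned across the intron was not tested. The first 50 bases of exon 2 occur once in the genome in all 53 intron genes.

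**Figure D5:**
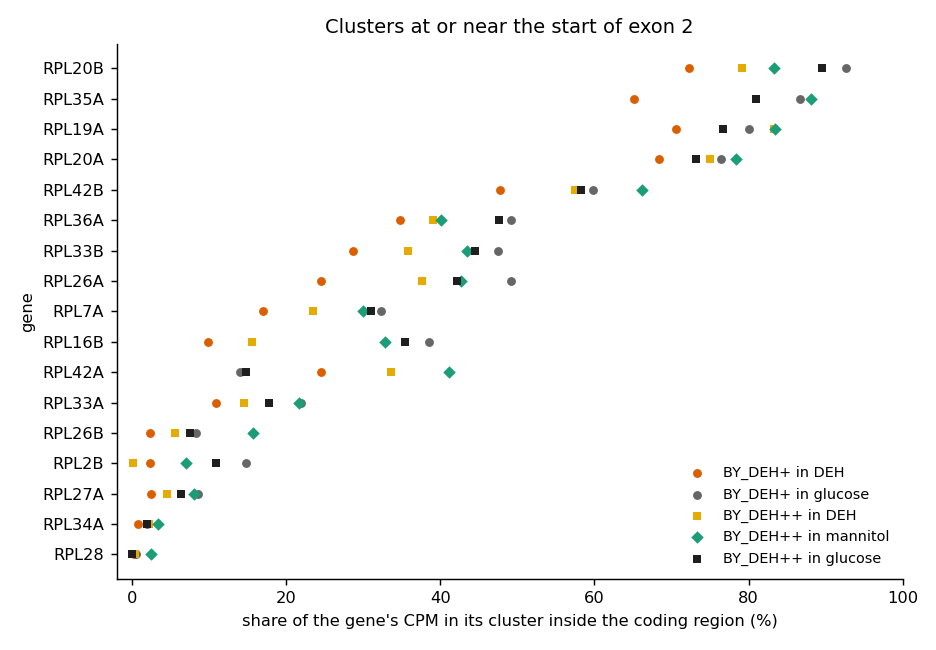
Share of a gene's CPM, in percent, in its cluster later in the coding region, for the 17 intron genes with such a cluster of 50 CPM or more in some library, with 1 point per library. The shares run up to 92.6% in RPL20B, and the point of BY_DEH++ in DEH lies below that in mannitol in all 17 genes.

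The known regulators bind upstream, and their patterns were searched on both strands. In the 500 bases before the coding start, 36 of the 81 genes (44.4%) held the Rap1 core ACCCNNACA, against 5.47% of the 6000 promoters of that length and 31.6% of those of the 57 small subunit genes. In the 250 bases before it 8 genes (9.88%) held it, against 2.50% of all promoters. The nearest match lay 304 bases before the coding start in the median gene (154 to 481), 27 of the 36 in the forward direction. The Abf1 pattern was in 24.7% of the genes' 250-base windows and 26.4% of all. The letters TATAAA were in 23.5% against 43.4%. The 45 genes without the Rap1 core in the 500 bases include RPL4A and RPL4B.

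Of the genes named for large folds, RPL7B, RPL9B, RPL43A, RPL37B and RPL42A hold no match. The matches of 6 others are shown with 10 bases on each side, in R64 coordinates, with the Rap1 core in capitals in the direction of the gene. They lie at chrVIII:36246-36274 (- strand, RPL8A), chrVII:649126-649154 (- strand, RPL11B), chrII:168027-168055 (+ strand, RPL19B), chrVII:228621-228649 (- strand, RPL9A), chrXV:779857-779885 (- strand, RPL33B) and chrVIII:383093-383121 (- strand, RPL42B). The core reads on the opposite strand in RPL9A.
RPL8A: tgaagaaaacACCCAAACAtatctaggcc
RPL11B: tacaacgagaACCCATACAttactttttt
RPL19B: gtgttttaaaACCCAGACAtatttttcac
RPL9A: tttccagaaaTGTTTGGGTttatttttta
RPL33B: gcctgtataaACCCATACAatcagcccat
RPL42B: catccgatacACCCATACAtcatgaaaat

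The folds of genes with and without a Rap1 core in 500 bases overlapped. The 36 genes with it had median log2 differences of 1.20 for DEH in BY_DEH+, 2.51 for DEH in BY_DEH++ and 3.28 for mannitol, and the 45 without it 1.31, 2.00 and 2.85. The lowest gene with a match was at 0.34, 0.91 and 1.47 in these comparisons, and the lowest without one at -0.89, -0.34 and -1.02. These are descriptions of letters, and no binding was measured.

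Of 27 regulators of these genes, 5 were 2-fold or more higher in DEH in BY_DEH+, 3 in DEH in BY_DEH++ and 1 in mannitol, and 0, 1 and 5 were lower. Over all genes 10.5%, 8.69% and 9.89% were higher and 9.97%, 10.8% and 27.0% lower. CRF1, the repressor that takes the place of Ifh1 on Fhl1 in some strains, had 515 CPM in DEH against 60.04 CPM in glucose in BY_DEH+, and 123 CPM in DEH, 19.98 CPM in mannitol and 49.9 CPM in glucose in BY_DEH++. The activators FHL1 (37.2 to 48.9 CPM) and IFH1 (48.0 to 76.0 CPM) varied by less than 2-fold over the 5 libraries. RAP1 itself had 18.6 CPM in mannitol against 46.0 CPM in glucose in BY_DEH++, a log2 difference of -1.27, and ESA1, an acetyltransferase found at these promoters, 23.1 CPM against 64.8 CPM. In mannitol the kinase YAK1, which acts against growth, had 73.0 CPM against 336 CPM in glucose in BY_DEH++, and DOT6, a repressor of ribosome assembly genes, 87.4 CPM against 373 CPM. UTP22 was the 1 regulator 2-fold higher in mannitol, with 75.3 CPM against 20.4 CPM in glucose in BY_DEH++. Median-of-ratios scaling raises the median of all genes in this comparison by 0.42. That shift is larger than the margin by which RAP1 and CRF1 passed 2-fold.

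The factors that assemble the large subunit were listed with 56 genes, of which 54 were measured. At the 2-fold limit, DEH gave 7 higher and 1 lower in BY_DEH+, and 22 higher and none lower in BY_DEH++. In mannitol 10 were higher and 3 lower. The 7 of 54 in BY_DEH+ lie near the 10.5% of all genes that were higher, and 9.97% of all genes were lower. In BY_DEH++ 8.69% of all genes were higher and 10.8% lower in DEH, and 9.89% higher and 27.0% lower in mannitol. Their median log2 differences were 0.49, 0.85 and 0.26 in these comparisons, against 1.25, 2.29 and 3.06 for the large subunit genes. SQT1, the chaperone of RPL10, had 73.9 CPM in DEH against 74.4 CPM in glucose in BY_DEH+, and 123 CPM in DEH, 63.1 CPM in mannitol and 76.2 CPM in glucose in BY_DEH++. NMD3, the export adaptor of the subunit, had 163 CPM in DEH against 81.5 CPM in glucose in BY_DEH+, and 236 CPM in DEH, 114 CPM in mannitol and 87.2 CPM in glucose in BY_DEH++. SYO1 and RIA1 were also high in mannitol, by clusters that the deposited table assigns to RPS29B and RPL42A as well.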

How the data were processed

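CAGE tags of 5 libraries were deposited as 1 table of consensus clusters, with signal normalised by the authors to CPM, as the deposited name of the table says, and a gene column whose rule is not given in the sources used here. BWA, HISAT2 and the mouse build mm9 are named, per the submitters' processing notes, without version or role. Cluster names in the file carry sequence names of yeast R64, the build used here, with starts moved by 1 base to count from 1.

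A gene's level was the sum of the clusters that the deposited table assigns to it. Read counts behind intervals were CPM divided by the CPM of 1 read (0.0503 to 0.106), found from the spacing of low values, of which 100.0% were whole within the tolerance of 0.15 of a read. No value under 5 to 10 reads was listed. PCR duplicates cannot be told from molecules, as no molecular identifiers are stated. The design assumed CPM, and the values, recorded as signal, were handled as such. Folds used a pseudocount of 1 CPM, genes with 10 CPM in at least 1 library and a 2-fold limit; shares used 10 points. Scripts were tested on simulated data. Promoters came from the R64 genome sequence and coding starts, since no promoter table was at hand, with 250 bases as the main window and 500 added after seeing the data.

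Members, lists and tests were chosen with earlier results of these data known. Genes named were the single-copy and stalk genes; the 6 highest and 6 lowest folds in DEH in both strains (by the smaller fold) and in mannitol; the 4 highest and 4 lowest in other comparisons; and the pairs with the largest shifts (8, 6 and 4). RPL40A, RPL7A, the genes with exon 2 clusters and those of the assembly and regulator lists were chosen after their values were seen. Values of 1 gene that the rule chose, and of its pair, are not reported here. Counting over each gene's own region was added after seeing where assigned clusters lie. Python 3.11.15, pandas 2.3.3, NumPy 2.4.6, SciPy 1.17.1 and matplotlib 3.10.9 were used.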

Additional observations from a re-analysis of the deposited data

Results flagged for a closer look

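For 2 genes the difference of DEH from glucose had opposite signs in the strains, and for 1 pair the A share differed by over 10 points in opposite directions; with 1 library per group, none of these differences was tested. RPP1A had a log2 difference of 1.18 in BY_DEH++ and -0.12 in BY_DEH+. RPP2B had 1.38 in BY_DEH++ and -0.58 in BY_DEH+. The RPL9A share of the RPL9 pair differed by 12.4 points in BY_DEH++ and by -17.2 points in BY_DEH+. Counted over the genes' own regions alone, each sign was the same.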

How the results depend on the processing

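No paired analysis was possible because each group has 1 library, and for the same reason no library could be left out. At 4-fold, 4 genes were higher in DEH in BY_DEH+, 46 in DEH in BY_DEH++ and 1 in BY_DEH++ over BY_DEH+ in DEH; 0 were lower in mannitol over glucose, 0 higher and 14 lower in DEH over mannitol, and 0 higher and 0 lower between the strains in glucose. The count lower in mannitol over glucose was 0 with median-of-ratios scaling and with CPM rescaled over other genes, and 2 with a window around the coding start, with clusters of 1 gene alone and with the own region. The count higher in DEH over mannitol was 1 with both rescalings and with clusters of 1 gene alone. Median-of-ratios scaling gave 33 genes higher in BY_DEH++ over BY_DEH+ in DEH. Lower in BY_DEH++ in glucose were 0 with a pseudocount of 10 CPM and 2 with the highest cluster alone. At 20 points the pairs counted were 3, 2, 7, 4, 2 and 0 in the order of the comparisons; clusters of 1 gene alone gave 10 in DEH over mannitol, and the own region 0 between the strains in glucose. The share of all CPM in BY_DEH+ in DEH and glucose and in BY_DEH++ in DEH, mannitol and glucose was 5.996, 2.93, 9.51, 16.2 and 2.399% of clusters with a gene, 4.74, 2.14, 7.92, 13.3 and 1.80% in the start window, 4.23, 2.12, 7.12, 12.9 and 1.74% with clusters of 1 gene alone, and 5.18, 2.37, 8.75, 14.9 and 1.96% over the own regions. The mannitol difference of RPL15B was -1.06 in the start window and -1.10 in the own region. Its difference of DEH over mannitol was 0.95 in both, against -1.19 over all assigned clusters. The other-strand cluster upstream of the gene is left out in both. RPL24B, with clusters of 1 gene alone, had -0.86 in DEH and -1.16 in mannitol in BY_DEH++; the cause was not tested. Asking also for a binomial test on the reads of 2 libraries removed no gene from the 2-fold counts; this compares libraries, covers counting error only, and at 10 CPM or more could hardly remove one. For 97 folds of named genes, 652 of 950 alternative values stayed within the counting interval, 296 lay outside it and 2 reversed.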
